A study of Mus musculus with 6 samples.

Results

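Transcript levels of 10 genes of bone morphogenetic protein (BMP) and activin signalling were compared between vestibular and cochlear sensory epithelia of mice at postnatal day 2. The genes are the BMP ligand genes Bmp2, Bmp4, Bmp5, Bmp6 and Bmp7, the activin subunit gene Inhba, the antagonist genes Fst and Nog, and the target genes Id1 and Id3. They were chosen by name, with earlier results of these data known. Every probe set annotated to exactly 1 of them was taken. This gave 16 probe sets among the 34945 that name 1 gene (10 of 18193 genes). A probe set is a group of short oligonucleotides on the array that reads 1 transcript, so a gene can be read more than once.

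The vestibular group was 3 arrays of wild type C3H mice, and its pools joined saccule, utricle and the cristae of the lateral and anterior canals. The cochlear group was 3 arrays of the same strain, genotype and age, and no animal was treated. Each pool held tissue of 10 to 12 inner ears, dissected together with the mesenchyme below it and the attached neurons, so all 6 arrays measured mixed tissue. The labels tie no array to single animals, so a p-value speaks only of how much the arrays of a tissue vary, which may be partly technical. An exact permutation of 3 against 3 arrays cannot go below 0.1, so only the fit over all probe sets was used for tests. Values are log2 expression levels as the authors computed them by robust multiarray averaging, with quantile normalization, and they carry 1 decimal.

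BMPs and activins are secreted dimers of the transforming growth factor beta superfamily. They bind complexes of type I and type II receptor kinases, which phosphorylate Smad proteins, and the Smads then enter the nucleus with Smad4 and change transcription, with the Id genes among the best known targets of the BMP branch. Noggin holds BMPs away from their receptors, and follistatin does the same mainly for activins. In the developing inner ear BMP4 takes part in the patterning of sensory territories. In the mouse cochlea activin and follistatin act against each other on the timing of hair cell differentiation.

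Of the 14 member probe sets that passed the filter on low values, 6 were higher and 7 lower in the vestibule, and 1 did not pass the test. Over all 30000 probe sets tested, 19.3% were called, 11.9% as higher and 7.33% as lower in the vestibule. By gene, Bmp2 and Bmp5 were higher in the vestibule, Bmp7 was higher at 2 of its 3 probe sets, and Bmp4, Bmp6, Inhba, Fst, Id1 and Id3 were lower in the vestibule. Calls follow the thresholds of the study, a fold of 1.3 or more together with a limma p below 0.1 once adjusted over all tested probe sets (Benjamini-Hochberg). The values of the 2 tissues did not overlap at any of the 14 tested member probe sets, which held for 27.3% of all tested probe sets. Since the members were chosen with earlier results of these data known, these counts do not test the pathway against the whole array. Because these are bulk samples, fewer cells of a type and less RNA per cell cannot be told apart in any of these differences.

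**Figure D1:**
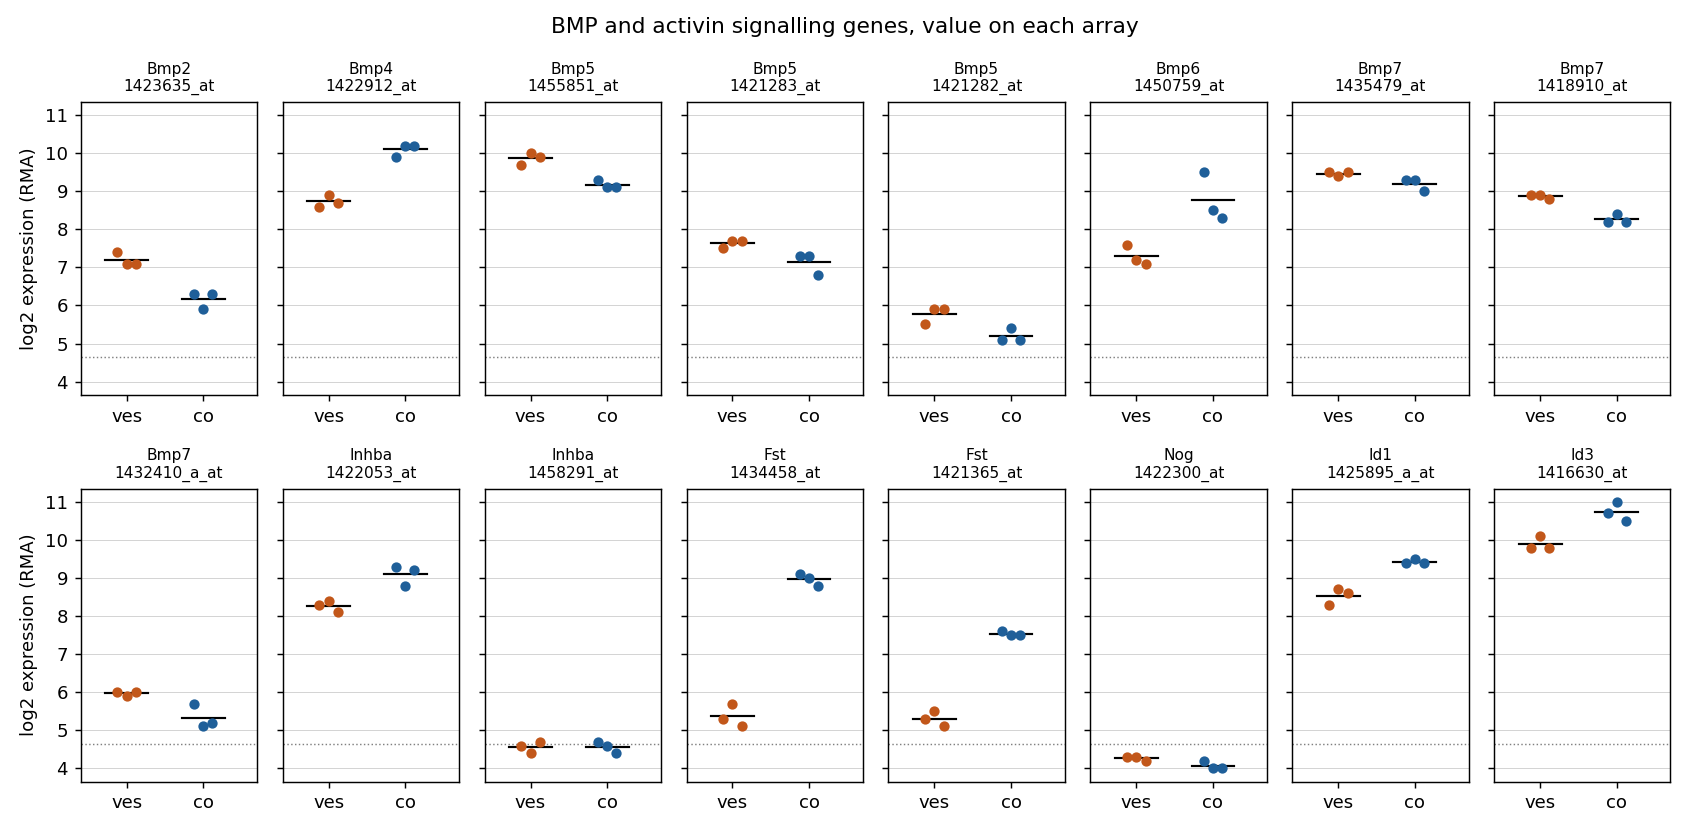
Log2 expression of the 16 member probe sets on each array, with vestibule (ves, orange) left of cochlea (co, blue), 1 point for each of 3 arrays a tissue and a bar at the mean. The dotted line is 4.65, the lowest mean the filter kept. The tissues lie farthest apart for Fst, and Nog and the second probe set of Inhba lie under the line.

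The arrays of each tissue were alike. Correlations over the tested probe sets were 0.993 between vestibular arrays, 0.981 to 0.988 between cochlear arrays and 0.946 to 0.962 across tissues, and at most 21.4% of probe sets had the same rounded value on any 2 arrays. Marker transcripts of cell types other than the sensory cells also differed between the tissues. For the counts that follow, the share called over all genes was 23.0%, with 15.1% higher and 7.95% lower in the vestibule. Macrophage markers were higher in the vestibule for 8 of 8 tested genes, with a mean log2 level of the list of 8.96 to 9.25 in the vestibule and 7.39 to 7.68 in the cochlea. Endothelial markers were higher for 7 of 8 (7.85 to 8.14 in the vestibule, 6.55 to 6.66 in the cochlea), melanocyte markers for 6 of 6 (7.73 to 7.97 in the vestibule, 5.93 to 6.52 in the cochlea) and osteoblast markers for 5 of 5 (8.18 to 9.10 in the vestibule, 6.16 to 7.12 in the cochlea). Neuronal markers were lower in the vestibule for 8 of 9 tested genes, at 6.67 to 6.91 in the vestibule and 8.17 to 8.68 in the cochlea. Hair cell markers were higher in the vestibule for 6 of 10 tested genes and lower for 1 (9.31 to 9.37 in the vestibule, 8.23 to 8.54 in the cochlea), and markers of the cochlear sensory region and tectorial membrane were lower for 4 of 6 and higher for 1 (10.48 to 10.63 in the vestibule, 11.30 to 11.80 in the cochlea). Markers of otoconia, the crystals of the vestibular maculae, were higher in the vestibule for 3 of 3 (10.63 to 10.67 in the vestibule, 8.67 to 8.93 in the cochlea). Cartilage markers went both ways, with 4 of 9 tested genes higher in the vestibule, 2 lower and 3 not passed, and the mean over the list, 8.80 to 8.93 in the vestibule and 8.84 to 9.22 in the cochlea, joins these. Means of the Schwann cell list (10.47 to 10.85 in the vestibule, 9.87 to 10.13 in the cochlea; 3 of 6 higher, 1 lower), the pericyte list (7.92 to 8.10 in the vestibule, 7.28 to 7.52 in the cochlea; 3 of 5 higher) and the red blood cell list (6.4 to 6.55 in the vestibule, 5.55 to 6.15 in the cochlea; 2 of 2 higher) were also higher on every vestibular array. Supporting cell markers were split, with 2 of 6 tested genes lower in the vestibule, 1 higher and 3 not passed (9.05 to 9.12 in the vestibule, 9.20 to 9.52 in the cochlea). Of 8 mesenchyme and fibroblast markers 4 were higher, 1 lower and 3 not passed, and the list means met (11.6 to 11.7 in the vestibule, 11.2 to 11.6 in the cochlea). Among the endothelial and macrophage markers Pecam1 and Itgam fell below the filter. By list, the called gene with the largest difference was Stmn2 for neurons (-3.90), Pmel for melanocytes (2.27), Kdr for endothelium (2.97), Cd68 for macrophages (2.03), Ibsp for osteoblasts (4.40), Gfi1 for hair cells (3.10), Fgfr3 for the cochlear sensory region (-3.57) and, against the direction of most called genes of its list, Matn1 for cartilage (-3.93). The part of these cell types in the results on BMP and activin genes was not tested.

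**Figure D2:**
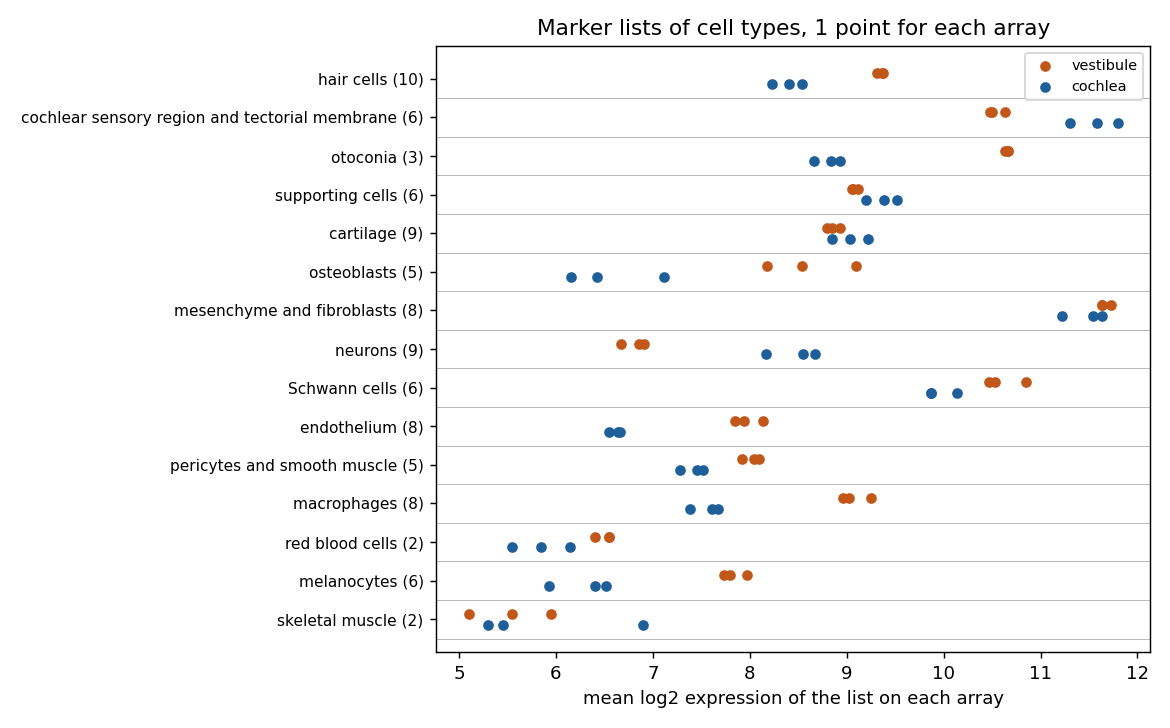
Mean log2 expression of each list of cell type markers on each array, vestibule (orange) above cochlea (blue), with the number of tested genes in brackets. The hair cell, otoconia, osteoblast, Schwann cell, endothelial, pericyte, macrophage, red blood cell and melanocyte lists lie higher on all 3 vestibular arrays, and the neuronal, supporting cell and cochlear sensory region lists lie lower on them.

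Bmp2 and Bmp4 encode closely related ligands, and they differed between the tissues in opposite directions. Bmp2, which in other tissues drives cartilage and bone formation, read 7.4, 7.1 and 7.1 in the vestibule and 6.3, 5.9 and 6.3 in the cochlea at its single probe set, 1423635_at. Each vestibular array was higher than each cochlear array by 0.8 or more on the log2 scale. The log2 difference, vestibule minus cochlea, was 1.03 (standard error 0.15, 95% confidence interval 0.69 to 1.38, limma adjusted p = 0.00177), a fold of 2.05. In the vestibule the probe set stood at a level below which 67.1% of all probe sets lay, and in the cochlea this share was 55.9%.

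Bmp4 read 8.6, 8.9 and 8.7 in the vestibule and 9.9, 10.2 and 10.2 in the cochlea at probe set 1422912_at. All cochlear arrays were higher than all vestibular ones. Bmp4 was lower in the vestibule by a log2 difference of -1.37 (standard error 0.14, 95% confidence interval -1.68 to -1.06, limma adjusted p = 2.02e-04), so that the level in the cochlea was 2.58 times that in the vestibule. Of the tested probe sets, 96.6% had a smaller difference, whichever its direction. Over the alternatives in processing the difference of Bmp4 stayed between -1.47 and -1.28, and that of Bmp2 between 0.90 and 1.10.

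Bmp5, Bmp6 and Bmp7 form a second group of related BMP ligands, and here too the members went in different directions. Bmp6 read 7.6, 7.2 and 7.1 in the vestibule and 9.5, 8.5 and 8.3 in the cochlea at probe set 1450759_at. The groups did not overlap, but cochlea replicate 1 lay 1.0 above the next array of its tissue. The log2 difference of Bmp6 was -1.47 (standard error 0.29, 95% confidence interval -2.13 to -0.81, limma adjusted p = 0.00882), the widest interval among the members. Without cochlea replicate 1 it was -1.10 (limma adjusted p = 0.0162). The call of Bmp6 did not hold when the spread was taken from this probe set alone.

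Bmp5, a ligand gene known for its role in skeletal and cartilage shape, was read by 3 probe sets, all higher in the vestibule. The brightest, 1455851_at, read 9.7, 10.0 and 9.9 in the vestibule and 9.3, 9.1 and 9.1 in the cochlea. Its arrays did not overlap, and the difference was 0.70 (limma adjusted p = 0.00534, standard error 0.13), a fold of 1.62. The other probe sets, 1421282_at and 1421283_at, stood at 0.57 (95% confidence interval 0.22 to 0.91, limma adjusted p = 0.0354) and 0.50 (0.14 to 0.86, limma adjusted p = 0.0685). Leaving out any 1 of 4 arrays ended the call of 1421282_at, and any 1 of 5 arrays that of 1421283_at, while 1455851_at kept its call under every alternative tried. The call of 1421282_at held without vestibule replicate 1 or cochlea replicate 2, and that of 1421283_at without cochlea replicate 2.

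Bmp7, whose product can pair with other BMPs, was read by 3 probe sets as well, and they did not give the same call. The brightest, 1435479_at, read 9.5, 9.4 and 9.5 in the vestibule and 9.3, 9.3 and 9.0 in the cochlea, and was the tested member probe set that did not pass. Its log2 difference was 0.27 (95% confidence interval -0.02 to 0.55, limma adjusted p = 0.202), so a difference of up to 0.55 towards the vestibule lay within its error. Probe set 1418910_at read 8.9, 8.9 and 8.8 in the vestibule and 8.2, 8.4 and 8.2 in the cochlea, which put it 0.60 higher on the log2 scale (limma adjusted p = 0.00673). Probe set 1432410_a_at read 6.0, 5.9 and 6.0 in the vestibule and 5.7, 5.1 and 5.2 in the cochlea, a log2 difference of 0.63 (limma adjusted p = 0.0302), and lost its call without any 1 of the 3 vestibular arrays or without cochlea replicate 3. All 3 differences had the same sign. With the mean of its probe sets in place of the brightest, a setting chosen after the values were seen, Bmp7 stood at 0.50 and passed (limma adjusted p = 0.00621).

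Inhba encodes the beta A subunit, which as a dimer makes activin A. At probe set 1422053_at it read 8.3, 8.4 and 8.1 in the vestibule and 9.3, 8.8 and 9.2 in the cochlea. The tissues did not overlap, and the gap between the nearest arrays was 0.4. Inhba was lower in the vestibule by a log2 difference of -0.83 (standard error 0.16, 95% confidence interval -1.19 to -0.48, limma adjusted p = 0.00673), which put the level in the cochlea at 1.78 times that in the vestibule. Its other probe set, 1458291_at, lay below the filter, at 4.6, 4.4 and 4.7 in the vestibule and 4.7, 4.6 and 4.4 in the cochlea. The means were 4.57 in both tissues, and in a fit of all 45037 probe sets the 95% confidence interval of the difference was -0.29 to 0.29. In the vestibule 32.0% of all probe sets lay lower.

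Fst, which encodes the activin antagonist follistatin, had the largest difference of the members. At probe set 1434458_at it read 5.3, 5.7 and 5.1 in the vestibule and 9.1, 9.0 and 8.8 in the cochlea, and at 1421365_at it read 5.3, 5.5 and 5.1 in the vestibule and 7.6, 7.5 and 7.5 in the cochlea. Both probe sets put every cochlear array far above every vestibular one. The log2 difference was -3.60 (standard error 0.17, 95% confidence interval -3.98 to -3.22, limma adjusted p = 3.22e-06) at 1434458_at, a ratio of the measured levels, cochlea over vestibule, of 12.1. At 1421365_at it was -2.23 (standard error 0.13, 95% confidence interval -2.53 to -1.94, limma adjusted p = 1.03e-05), a ratio of 4.70. Counted from the largest difference towards the cochlea, 1434458_at held place 22 and 1421365_at place 115 among the 30000 tested probe sets.

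Fst averaged 5.37 ± 0.31 in the vestibule and 8.97 ± 0.15 in the cochlea at 1434458_at (SD, n = 3 arrays each). At 1421365_at it averaged 5.30 ± 0.20 in the vestibule and 7.53 ± 0.06 in the cochlea (SD, n = 3 each). The vestibular means lay above 45.7% and 44.8% of all probe sets, close to the median of 5.7 on each vestibular array. Whether they were above the background of the array was not tested, and the ratios of both probe sets would be lower bounds if they were not. Fst and Inhba, which encode an antagonist and its ligand subunit, were both lower in the vestibule.

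Nog, which encodes noggin, lay below the filter at its single probe set, 1422300_at. It read 4.3, 4.3 and 4.2 in the vestibule and 4.2, 4.0 and 4.0 in the cochlea, levels below which 25.0% and 18.6% of all probe sets lay. Vestibule replicate 3 and cochlea replicate 1 had the same value, so the groups touched. Fitted with all probe sets, the log2 difference was 0.20 (95% confidence interval -0.04 to 0.44, limma adjusted p = 0.302). No statement on the direction of Nog can be made at this level.

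**Figure D3:**
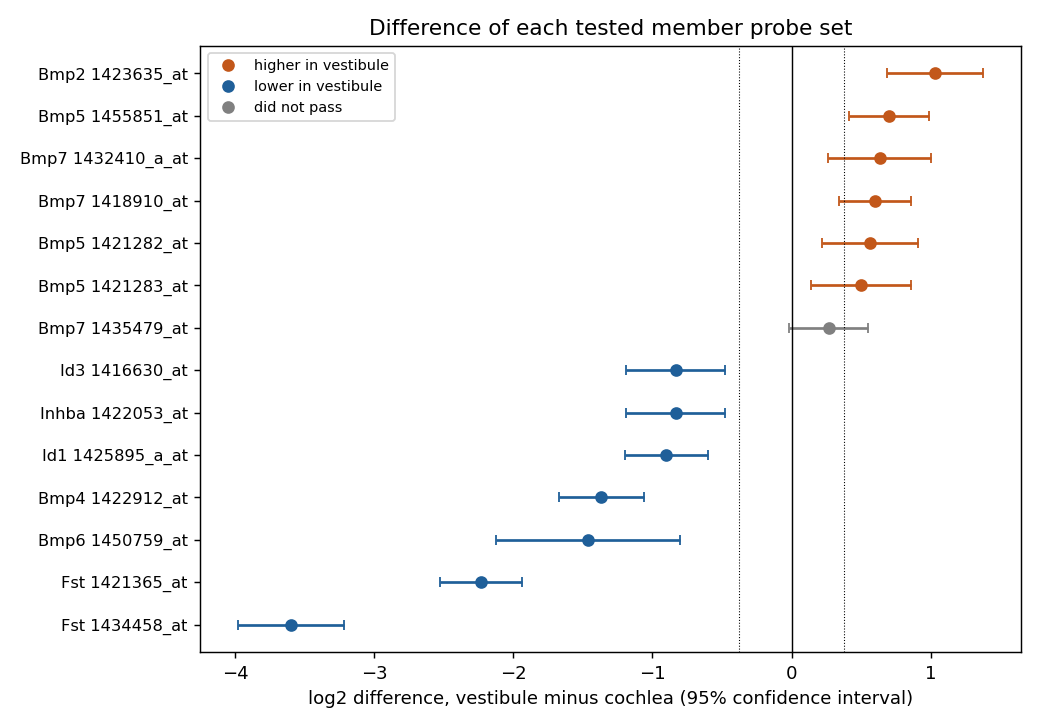
Log2 difference, vestibule minus cochlea, of the 14 tested member probe sets, with 95% confidence intervals from limma and dotted lines at a fold of 1.3 in either direction. The probe sets of Fst stand farthest towards the cochlea, at -3.60 and -2.23, and that of Bmp2 farthest towards the vestibule, at 1.03.

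Id1 and Id3 encode inhibitors of DNA binding, helix-loop-helix proteins that hold back factors such as Atoh1, the factor that makes hair cells. Id1 read 8.3, 8.7 and 8.6 in the vestibule and 9.4, 9.5 and 9.4 in the cochlea at probe set 1425895_a_at. Every cochlear array was higher, and the difference was -0.90 (standard error 0.13, 95% confidence interval -1.20 to -0.60, limma adjusted p = 0.00174). Id3 read 9.8, 10.1 and 9.8 in the vestibule and 10.7, 11 and 10.5 in the cochlea at 1416630_at. It was lower in the vestibule on all arrays too, by a log2 difference of -0.83 (standard error 0.16, 95% confidence interval -1.19 to -0.48, limma adjusted p = 0.00673). The level in the cochlea was 1.87 times that in the vestibule for Id1 and 1.78 times for Id3. The calls of both genes held under every alternative tried, with differences of -0.99 to -0.78 for Id1 and -0.95 to -0.70 for Id3.

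The Id genes did not move as a family. Id2 was lower in the vestibule like Id1 and Id3, and read 10.3, 10.4 and 10.1 in the vestibule and 11.6, 11.5 and 11.4 in the cochlea. The difference was -1.23 (limma adjusted p = 2.14e-04, standard error 0.12), and both of its probe sets were called. Id4 went the other way, at 12.1, 12.0 and 12.0 in the vestibule and 11.4, 11.4 and 10.6 in the cochlea, which put it 0.90 higher on the log2 scale (limma adjusted p = 0.0188, standard error 0.21). All 3 probe sets of Id4 were called as higher in the vestibule, at 0.90, 0.73 and 0.70. The call at 1423259_at, the brightest of them, was lost without vestibule replicate 1 (limma adjusted p = 0.120). Of the 8 genes in the list of other BMP targets, 3 were higher in the vestibule, 2 lower and 3 did not pass. Of all 14294 genes, each at its brightest probe set, 23.0% were called, 15.1% as higher and 7.95% as lower. Besides Id4 the target genes higher in the vestibule were the homeobox genes Dlx5 at 1.23 and Msx1 at 0.63. Dlx5 was dim, with means of 5.90 in the vestibule and 4.67 in the cochlea, the latter close to the filter minimum of 4.65. Besides Id2 the lower one was the Hairy-related repressor gene Hey1 at -1.0. Msx1 stood at 0.10 (limma adjusted p = 0.634) at its other probe set.

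Of the members, 5 had an entry in the RefSeq table of promoters (build GRCm38.p6, 250 bases before to 50 after the start site), and Id3, Bmp5 and Bmp6 held the Smad box CAGAC or its reverse complement GTCTG. The box was searched on both strands and stood in 49.6% of the 32851 promoters of the table and in 3 of these 5, and nothing is read from that count. The windows are printed to show where it lies in a target gene lower in the vestibule (Id3) and in a ligand gene of each direction (Bmp5 and Bmp6), with the box in capitals.
Id3, chr4:136143643-136143672, plus strand, box from 167 bases before the start site: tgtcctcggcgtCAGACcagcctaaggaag
Id3, chr4:136143742-136143771, plus strand, box from 68 bases before the start site: ggacccttggcgGTCTGttttgaataaggg
Bmp5, chr9:75775219-75775248, plus strand, box from 134 bases before the start site: tagatcactgttGTCTGttacatgcatggc
Bmp6, chr13:38345585-38345614, plus strand, box from 119 bases before the start site: agcgcacgtgtgCAGACtgcgagtgaccgt
The GC-rich Smad motif GGCGCC, which is its own reverse complement, was in 11.9% of all promoters of the table and in 0 of these 5. Bmp4 and Inhba had neither motif in this window. A match is a run of letters and not a measured binding site.

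The receptors that carry these signals were split between the tissues. Of 15 receptor and co-receptor genes, 4 were higher in the vestibule, 4 lower and 7 did not pass (53.3% called, against 23.0% of all genes). The median log2 difference of the list was 0.00, against 0.03 over all genes. Lower in the vestibule were the activin type I receptor gene Acvr1b and the type II receptor genes Acvr2a and Acvr2b. The netrin and repulsive guidance receptor gene Neo1 was lower too. The genes higher in the vestibule were the BMP type I receptor genes Bmpr1b and Acvr1, the co-receptor gene Rgmb and the betaglycan gene Tgfbr3.

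Acvr1b, the main type I receptor for activin, read 9.1, 9.1 and 8.8 in the vestibule and 9.7, 9.8 and 9.8 in the cochlea, and the difference was -0.77 (limma adjusted p = 0.00300, standard error 0.12). The type II receptor genes Acvr2a and Acvr2b stood at -0.57 (limma adjusted p = 0.0216) and -0.63 (limma adjusted p = 0.0266). Their arrays did not overlap. Acvr1b and Acvr2b each had a dimmer probe set that did not pass, at -0.03 for 1422098_at and -0.23 for 1439856_at, and averaged over probe sets Acvr1b stood at -0.40 (limma adjusted p = 0.0113). Acvr2b lost its call without vestibule replicate 1 (limma adjusted p = 0.143) or 2 (0.131), and Acvr2a without vestibule replicate 3 (0.110). Neo1 stood at -0.50 (limma adjusted p = 0.0556) at its brightest probe set, and the other 4 probe sets did not pass. It lost its call without any 1 of vestibule replicates 2 and 3 and cochlea replicates 1 and 3 (limma adjusted p of 0.154 to 0.216).

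Bmpr1b read 9.2, 8.9 and 9.1 in the vestibule and 8.5, 7.5 and 7.3 in the cochlea. Cochlea replicate 1 was the highest array of its tissue, as it was for Bmp6. The difference of Bmpr1b was 1.3 (limma adjusted p = 0.0129, standard error 0.28), and it lost its call without vestibule replicate 1 (1.23, limma adjusted p = 0.106). Its dimmer probe set, 1422872_at, did not pass at -0.17, and the average of both stood at 0.57 (limma adjusted p = 0.0303). Acvr1 stood at 0.67 (limma adjusted p = 0.00276), with 2 of 3 probe sets called and the uncalled one, 1416787_at, at 0.00. Rgmb stood at 0.97 (limma adjusted p = 0.00364) with 4 of 5 probe sets called, and Tgfbr3 at 0.93 (limma adjusted p = 0.00391). The dimmer probe set of Tgfbr3 did not pass at 0.00, and the average of both stood at 0.47 (limma adjusted p = 0.0117). Bmpr1a and Bmpr2, the broadly used type I and type II receptor genes, did not pass at their brightest probe sets. The log2 difference was -0.10 for Bmpr1a (95% confidence interval -0.35 to 0.15) and 0.00 for Bmpr2 (-0.30 to 0.30), and 1 of 6 probe sets of Bmpr1a, with a mean of 4.73 in the vestibule and 5.20 in the cochlea, was lower in the vestibule at -0.47.

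**Figure D4:**
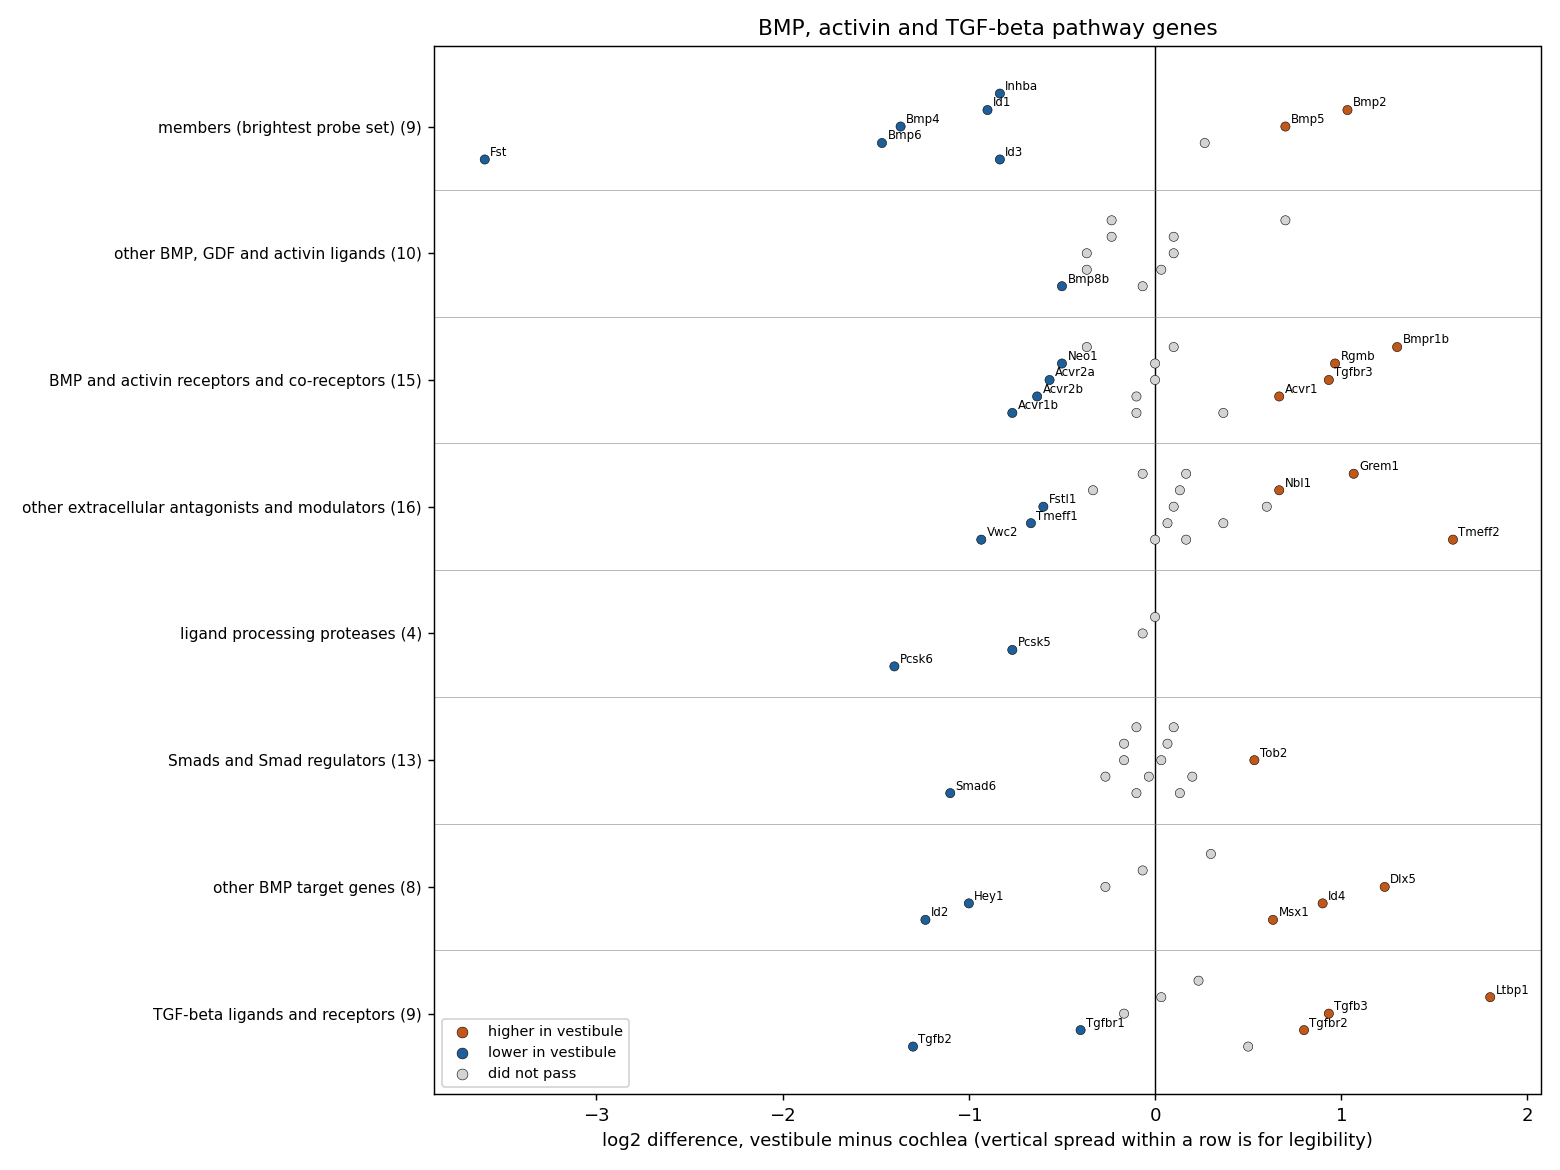
Log2 difference, vestibule minus cochlea, at the brightest tested probe set of each gene, for the 9 tested members and 7 lists of related genes, with the number of genes in brackets. Orange points were higher and blue points lower in the vestibule, and grey points did not pass. Receptors, antagonists and targets have points on both sides, and most Smad genes lie near 0.

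Among 13 tested Smad genes and Smad regulators, 11 did not pass, and the share called, 15.4%, was not far from the 23.0% of all genes. The BMP-activated Smads Smad1 and Smad5 stood at 0.07 (95% confidence interval -0.27 to 0.40) and -0.27 (-0.67 to 0.13), and Smad4, the shared partner, at 0.03 (-0.23 to 0.30). Without cochlea replicate 3 Smad5 stood at -0.47 and was called as lower in the vestibule (limma adjusted p = 0.0420). Smad6, an inhibitory Smad that is itself induced by BMP signals, read 7.2, 7.6 and 7.3 in the vestibule and 8.6, 8.5 and 8.3 in the cochlea. It was lower in the vestibule on every array, with a difference of -1.10 (limma adjusted p = 8.99e-04, standard error 0.14). Smad7, the other inhibitory Smad, stood at -0.10 (95% confidence interval -0.43 to 0.23) at its brightest probe set, while its dim one, with the suffix _x_at that marks possible cross-hybridisation, stood at -0.90 (limma adjusted p = 0.0123). Tob2 was the gene called as higher in the vestibule, at 0.53 (limma adjusted p = 0.0666), with 1 of 5 probe sets called. It lost its call without any 1 array other than cochlea replicate 1 (limma adjusted p of 0.122 to 0.235).

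Of 16 other extracellular antagonists and modulators, 3 were higher in the vestibule, 3 lower and 10 did not pass, a called share of 37.5% against 23.0% of all genes (15.1% higher and 7.95% lower). Tmeff2, a transmembrane protein with follistatin domains, had the largest difference, at 8.1, 8.4 and 8.1 in the vestibule and 6.4, 7.1 and 6.3 in the cochlea (difference 1.6, limma adjusted p = 9.51e-04). Its relative Tmeff1 stood at -0.67 (limma adjusted p = 0.0229). The secreted BMP antagonist gene Grem1 read 6.9, 6.8 and 6.6 in the vestibule and 5.3, 6.3 and 5.5 in the cochlea, a log2 difference of 1.07 (limma adjusted p = 0.0159). It lost its call without vestibule replicate 1 (limma adjusted p = 0.117) or cochlea replicate 3 (0.113). Nbl1, of the same family, stood at 0.67 (limma adjusted p = 0.0454), the follistatin-like gene Fstl1 at -0.60 (limma adjusted p = 0.00673) and Vwc2 at -0.93 (limma adjusted p = 0.0212). The only tested probe set of Vwc2, 1455882_x_at, carries the suffix that marks possible cross-hybridisation. The calls of Tmeff1 (limma adjusted p = 0.114 without vestibule replicate 1, 0.118 without 2), of Vwc2 (0.120 without vestibule replicate 1, 0.127 without 3) and of Nbl1 (0.133 and 0.159 without vestibule replicates 1 and 2, 0.144 and 0.174 without cochlea replicates 1 and 3) were lost without those arrays. Chrd, which encodes chordin, did not pass at 0.13 (95% confidence interval -0.14 to 0.41). Chrdl1 and Twsg1 did not pass at their brightest probe sets either, at 0.17 (limma adjusted p = 0.476) and 0.60 (limma adjusted p = 0.104). Dimmer probe sets of both were called as higher in the vestibule. These were 2 of 4 for Chrdl1, at 0.60 and 0.50, and 1 of 3 for Twsg1, at 0.57.

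Of the other BMP, GDF and activin ligand genes, 10 of 18 were tested, and 1 was called (10.0%, against 23.0% of all genes). This was Bmp8b, lower in the vestibule at -0.50 (limma adjusted p = 0.0167). Its means were low, at 5.47 in the vestibule and 5.97 in the cochlea. With only the 20000 brightest probe sets tested, 0 genes of this list were called as lower. With 1 array left out, 0 to 1 genes of the list were called as higher and 1 to 2 as lower. Gdf10 had the largest difference of the list but did not pass, at 0.70 (95% confidence interval 0.001 to 1.40, limma adjusted p = 0.179). Inhbb, the second activin subunit gene, did not pass at -0.23 (95% confidence interval -0.51 to 0.04), and neither did Inha, the inhibin subunit gene, at 0.10 (-0.19 to 0.39). Among the proteases that cut ligand precursors or antagonists, Pcsk6 was lower in the vestibule, at 9.2, 9.2 and 9.1 in the vestibule and 10.8, 10.9 and 10.0 in the cochlea (difference -1.40, limma adjusted p = 0.00255). The probe sets of Pcsk5 disagreed, with 2 of 4 higher and 2 lower in the vestibule, from 0.90 at 1452475_at to -0.77 at 1437339_s_at. Furin and Bmp1, at 0.00 and -0.07, did not pass. Median log2 differences were -0.15 for the other ligand genes, 0.12 for the other antagonists, -0.42 for the proteases, -0.03 for the Smads and 0.12 for the other targets, against 0.03 over all genes and -0.83 over the 9 tested members.

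The genes whose pattern over the 6 arrays was most like that of a member were found by the root mean square difference between log2 values centred on each gene's mean, over 14294 genes. The nearest to Fst were the fibroblast growth factor receptor gene Fgfr3, at 0.19 log2 units, Ccn3 at 0.24 and the carbonic anhydrase gene Car9 at 0.26. Nearest to Bmp6 were Glb1l2 (0.11), the dynein chain gene Dync1i1 (0.12) and the transporter gene Slco1c1 (0.18). Nearest to Bmp4 were Emilin3 (0.07), the protein kinase C gene Prkcb (0.10) and Gdpd2 (0.10). With 6 arrays in 2 tissues, a small value needs a tissue difference of like size.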

How the data were processed

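RNA of vestibular and cochlear sensory epithelia was amplified by the authors, hybridised to Affymetrix mouse arrays and summarised by RMA with quantile normalization. The submitters' processing notes name RMA and MAS5 without versions. The log2 values were analysed as deposited, without further scaling. The members and lists were chosen with earlier results of these data known. Of the probe sets, 34945 name 1 gene, 932 several and 9160 none, after 64 controls were left out, and 34741 symbols were matched through the Entrez number. The Present filter of the study needs probe-level data, and in its place the 30000 probe sets with the highest mean were tested, which set a minimum mean of 4.65. Vestibule minus cochlea was tested two-sided by lmFit and eBayes of limma (version 3.58.1; R 4.3.3, tables read by the data.table package, version 1.17.8), with p-values adjusted by Benjamini-Hochberg over all tested probe sets. The fit was tested on simulated data. Outside the members, a gene has the value of its brightest probe set. Of each list, up to 4 called genes in each direction with the largest differences are named, and beside them uncalled receptors and Smads, and of a marker list the called gene with the largest difference. Neighbours are given for the 3 members with the largest differences. Uncalled genes of other lists are named as known pathway components, chosen after their values were seen. With 3 arrays for each tissue, their number limits the precision. Whether same-numbered arrays were paired is not known. Their deviations correlated at 0.22, 0.15 and 0.00, which cannot decide it, since different-numbered arrays were not compared. The main fit used no replicate block. Alternatives were other filters, scalings and tests, a replicate block, each array left out, other thresholds, noise for the rounding, and other rules for several probe sets. Figures were drawn in Python 3.11.15 (matplotlib 3.10.9; numpy 2.4.6; pandas 2.3.3).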

Additional observations from a re-analysis of the deposited data

How the results depend on the processing

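The differences of Bmp2, Bmp4, Inhba, Fst, Id1 and Id3, of 1455851_at of Bmp5 and of 1418910_at of Bmp7 kept direction and call under all alternatives tried. With a plain t-test in place of limma, 2204 probe sets were higher and 1333 lower in the vestibule, and of the members 3 were higher, with 9 pathway genes higher. Bmp6 (-1.47, adjusted p = 0.131), 1421282_at (0.57, 0.145) and 1421283_at (0.50, 0.212) of Bmp5 and 1432410_a_at of Bmp7 (0.63, 0.149) lost their calls there. 1421283_at of Bmp5 lost its call after median centring (0.47), with the replicate number as a block (replicate block, 0.50, limma adjusted p = 0.167) and at an adjusted p under 0.05 (0.50). With the block 5 member probe sets were higher and 7 lower, and 2899 and 1808 of all. Of the pathway genes 14 were higher and 11 lower with the block, against 14 and 15 without it, and Neo1 (limma adjusted p = 0.166), Tgfbr1 (0.115), Tmeff1 (0.122) and Vwc2 (0.159) lost their calls. With 1 array left out, the counts were 2377 to 3880 higher and 1431 to 2812 lower over all probe sets, 3 to 6 and 7 to 7 for the members and 9 to 16 and 11 to 16 for pathway genes, lowest over all probe sets without vestibule replicate 1. The 3 higher member probe sets arose without vestibule replicate 2 or 3 or cochlea replicate 3. Over these the differences were 0.50 to 0.70 for 1421282_at, 0.33 to 0.58 for 1421283_at and 0.52 to 0.82 for 1432410_a_at. When probe sets of a gene were averaged, for members a setting chosen after seeing the data, Bmp7 passed at 0.50, Smad7 passed at -0.50 and Pcsk5 turned to 0.0083, without a call. Values near 0 changed sign without a call after a second quantile normalization (Smad1 and Smad4, both -0.033), with array weights (Smad1 -0.0012, Smad4 -0.023) and with averaged probe sets (Smad1 -0.011). With 1 array left out Smad1 lay between -0.067 and 0.13, Smad4 between -0.017 and 0.10 and Smad7 between -0.18 and 0.017. Smad5 gained a call without cochlea replicate 3 (-0.47). The cause of these changes was not tested.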

Other observations

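The transforming growth factor beta branch of the superfamily shares the type II and type I receptor scheme with activins. Of 9 tested genes 3 were higher in the vestibule, 2 lower and 4 did not pass, a called share of 55.6% against 23.0% of all genes (15.1% higher and 7.95% lower). The ligand gene Tgfb2 read 10.5, 10.2 and 10.3 in the vestibule and 11.7, 11.6 and 11.6 in the cochlea, and the difference was -1.30 (limma adjusted p = 1.29e-04, standard error 0.12), and all 4 of its probe sets were called. Tgfb3, the gene of a related ligand, went the other way, at 9.6, 9.6 and 9.4 in the vestibule and 8.6, 8.9 and 8.3 in the cochlea (log2 difference 0.93, limma adjusted p = 0.00439). Ltbp1, whose product holds latent ligand in the matrix, read 9.6, 9.2 and 9.3 in the vestibule and 7.8, 7.7 and 7.2 in the cochlea, and the difference was 1.80 (limma adjusted p = 2.16e-04, standard error 0.18). Averaged over its probe sets Ltbp1 stood at 1.17. The type II receptor gene Tgfbr2 stood at 0.80 (limma adjusted p = 0.0102), and its dimmer probe set, 1425444_a_at, did not pass at 0.50 (limma adjusted p = 0.142). The type I receptor gene Tgfbr1 stood at -0.40 (limma adjusted p = 0.0552), and lost its call without any 1 of the arrays vestibule replicate 1, vestibule replicate 2 or cochlea replicate 2 (0.181, 0.170 and, at a difference of -0.33, 0.0913).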
